A study of Mus musculus with 7 samples.

Results

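A set of 10 genes that mark fat cells were followed in isolated pancreatic islets of mice: Fabp4, Adipoq, Car3, Plin1, Cfd, Lpl, Cidec, Retn, Lipe and Cd36. They were chosen by name, and each gene was read from the probe set annotated to that gene alone with the highest mean over the 7 arrays. Of the 10 genes 9 had such a probe set, out of 22180 genes measured in this way. Cfd, which encodes the complement protease adipsin, had none in the platform annotation and is not analysed here.

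Of the 7 arrays, 4 labelled Gata6 KO were hybridised with RNA of Gata6 flox/flox;Pdx1-Cre mice, and 3 control arrays with RNA of Gata6 flox/flox mice without the Cre transgene. Both groups therefore carry the floxed alleles, only the Gata6 KO group carries Cre, and an effect of Cre cannot be told apart from one of Gata6. The Pdx1 promoter drives Cre in the pancreatic epithelium. Whether signal of the fat cell markers came from cells of that lineage was not tested. Each array held islets of 3 mice aged 2 months, pooled after collagenase digestion, so replicates are separate pools. Values are log2 signals, on which a difference of 1 is a 2-fold change. The number of arrays limits the precision.

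Fat cells store triglyceride in a droplet coated by perilipin 1 (Plin1) and enlarged by Cidec, and release fatty acids from it through hormone-sensitive lipase (Lipe). Fatty acids reach the cell after lipoprotein lipase (Lpl) has freed them from circulating lipoproteins, cross the membrane with the help of Cd36 and are carried inside by Fabp4. Adiponectin (Adipoq) and resistin (Retn) are secreted hormones, and carbonic anhydrase 3 (Car3) is an abundant cytosolic protein of fat and muscle. Adipoq, Plin1 and Cidec are largely restricted to fat cells, whereas Fabp4 and Cd36 are also made by macrophages and endothelium, and Lpl by macrophages and islet cells.

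The upstream windows of 1 hormone, 1 droplet protein and 1 fatty acid transporter are shown because Adipoq and Cd36 were higher on the Gata6 KO arrays and Plin1 was not. Each is the 250 bases before the annotated start, 5′ to 3′ on the strand of the gene, from RefSeq on build GRCm38.p6. Capitals mark matches, on either strand, to the CCAAT box, to the nuclear receptor half-site AGGTCA and to the C/EBP-type sequence TTGCNNAA. The windows are chr16:23146286-23146535 on the plus strand for Adipoq, chr5:17835897-17836146 on the minus strand for Cd36, and chr7:79732777-79733026 on the minus strand for Plin1.
Adipoq: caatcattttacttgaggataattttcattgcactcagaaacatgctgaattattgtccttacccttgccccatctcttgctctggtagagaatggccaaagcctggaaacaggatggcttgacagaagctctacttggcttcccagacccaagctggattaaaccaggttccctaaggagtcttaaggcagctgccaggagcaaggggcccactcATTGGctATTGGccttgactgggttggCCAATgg
Cd36: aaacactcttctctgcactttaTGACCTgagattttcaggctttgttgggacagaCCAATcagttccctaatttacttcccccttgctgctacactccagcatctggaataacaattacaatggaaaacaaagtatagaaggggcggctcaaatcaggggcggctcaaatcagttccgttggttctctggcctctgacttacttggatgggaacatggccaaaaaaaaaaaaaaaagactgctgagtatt
Plin1: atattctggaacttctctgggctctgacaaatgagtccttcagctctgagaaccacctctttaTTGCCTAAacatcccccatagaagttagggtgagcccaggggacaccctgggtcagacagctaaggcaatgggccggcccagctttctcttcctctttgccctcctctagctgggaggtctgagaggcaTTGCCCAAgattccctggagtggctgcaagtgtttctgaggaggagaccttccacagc
Of the 10 genes 7 had a window in the table, 9 windows in all, and Fabp4, Car3 and Lpl had none. On both strands, TTGCNNAA, a sequence of the type bound by C/EBP factors of fat cells, was found in 2 of the 9 windows (Plin1 and Cidec) and in 9.56% of all 32851 windows. The nuclear receptor half-site AGGTCA was found in 1 (Cd36), against 14.0% of all windows, and CCAAT in 2 (Adipoq and Cd36), against 33.85%. The direct repeat of AGGTCA spaced by 1 base, each copy of which also counts as AGGTCA, and the TATA box TATAAA were found in 0 of the 9 windows, against 0.0335% and 12.4% of all windows. A match is a description of the letters and not a binding site.

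The markers split into 4 genes that were higher on the Gata6 KO arrays and 5 that did not pass the test. Fabp4, Car3, Cd36 and Adipoq rose by 2.40, 1.58, 1.47 and 0.69 on the log2 scale, and none of the 9 was called lower. Plin1, Lpl, Cidec, Retn and Lipe, which include both droplet coat genes and both lipases, differed by between -0.26 and 0.32. The 4 calls are at a Benjamini-Hochberg adjusted p under 0.05 in limma's test over all genes. Of all genes 24.7% passed that threshold, 17.4% towards higher and 7.36% towards lower values in Gata6 KO islets. The 4 of 9 markers that were higher are a larger share than among all genes, and no test of the list was made. Of Adipoq, Plin1 and Cidec, named above as largely restricted to fat cells, only Adipoq passed, at a signal near background. The other hormone gene, Retn, did not pass. The median difference was 0.32 over the 9 markers and 0.17 over all genes. In bulk tissue, fewer cells of a type and less RNA per cell cannot be told apart.

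The direction of the calls over all genes moved with the scaling, which bears on every small difference here. Of the called genes 70.2% were higher with the values as deposited, 40.3% once every array was centred on the median of its genes, and 49.6% when quantiles were normalized again. Fabp4, Car3 and Cd36 passed under all 3 scalings, and Adipoq did not pass after centring.

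**Figure D1:**
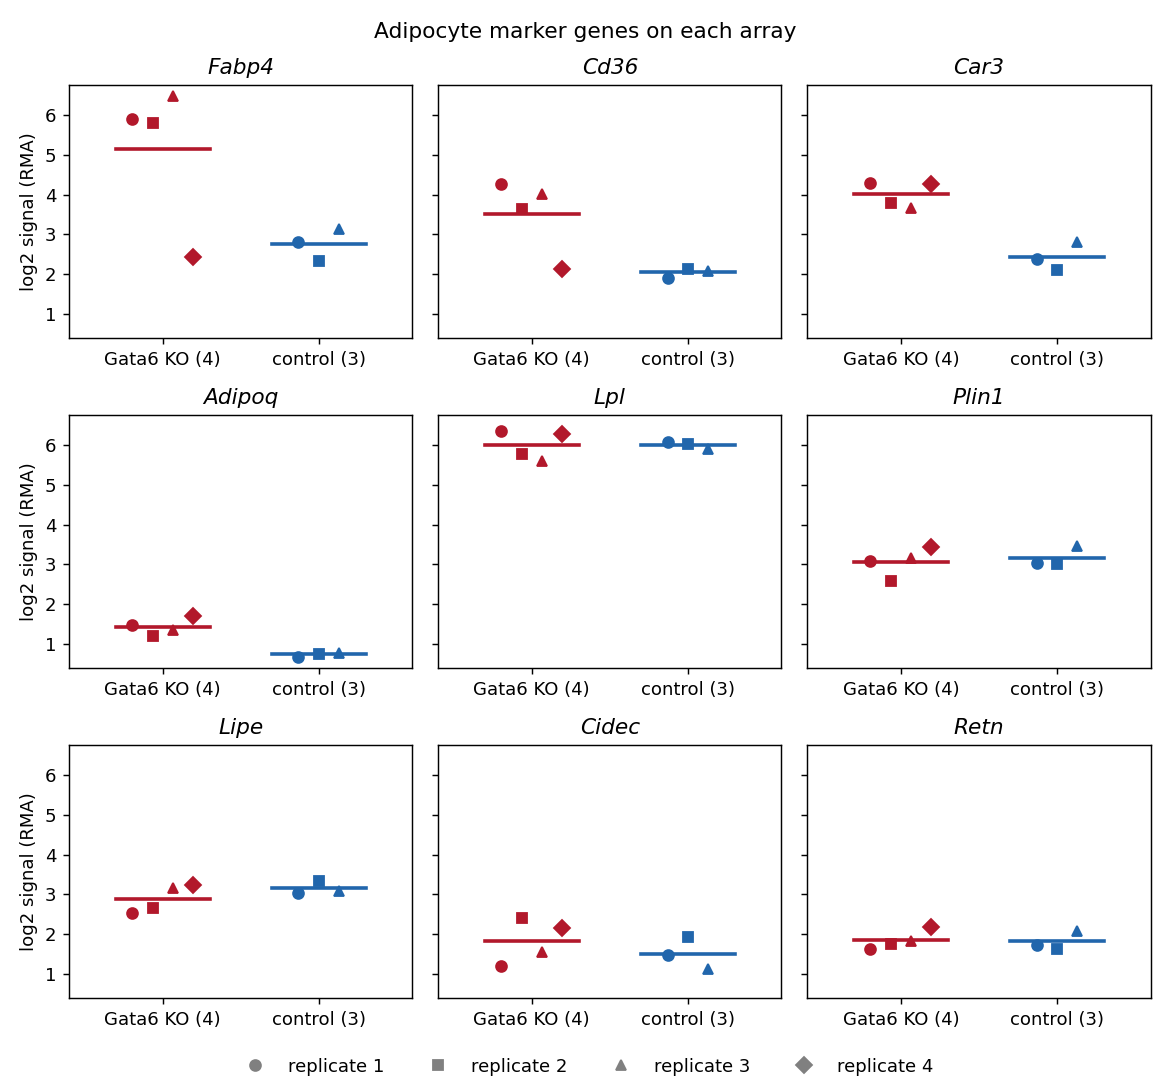
Log2 signal of the 9 measured adipocyte marker genes on each array, Gata6 KO (4 arrays, red) left of control (3 arrays, blue). Symbols give the replicate number and lines the group means. Fabp4 and Cd36 are high on 3 Gata6 KO arrays and at the control level on Gata6 KO 4, while Car3 and Adipoq lie above every control array on all 4.

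Among the genes of fatty acid uptake and transport, Fabp4 had the largest difference. Its log2 signal was 5.90, 5.80, 6.47 and 2.43 on Gata6 KO arrays 1 to 4, against 2.81, 2.33 and 3.14 on control arrays 1 to 3. Arrays 1, 2 and 3 of the Gata6 KO group lay far above every control array, whereas Gata6 KO 4 lay inside the control range, so the groups overlapped. The mean was 5.15 ± 1.84 (SD, n = 4) in Gata6 KO islets and 2.76 ± 0.41 (SD, n = 3) in controls, a 5.26-fold difference with a log2 SE of 0.68 (limma adjusted p = 0.0207).

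One array set the spread of Fabp4. Without Gata6 KO 4 the log2 difference was 3.30 (limma adjusted p = 4.99e-06). With that array kept, leaving out control 1, control 2 or Gata6 KO 1, 2 or 3 ended the call, with adjusted p = 0.0646, 0.0867, 0.0539, 0.0503 and 0.0615. So did robust estimation of the variances (adjusted p = 0.162), and over all alternatives the adjusted p ran from 1.36e-06 to 0.162. The lower end is the fit with the replicate number as a block, which takes nothing from Gata6 KO 4.

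Cd36, the fatty acid translocase and scavenger receptor, showed the same split of the arrays. Its log2 signal was 4.26, 3.64, 4.03 and 2.13 on Gata6 KO arrays 1 to 4, against 1.90, 2.14 and 2.09 on control arrays 1 to 3. Gata6 KO 4 again fell within the control range, just under control 2. The group means were 3.51 ± 0.96 (SD, n = 4) in Gata6 KO islets and 2.04 ± 0.12 (SD, n = 3) in controls, a 2.77-fold difference with a log2 SE of 0.39 (limma adjusted p = 0.0141). Without Gata6 KO 4 the difference was 1.93 (adjusted p = 7.64e-05). The call was lost without control 1 (adjusted p = 0.0611, in a range over all alternatives from 7.64e-05 to 0.0941).

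Lpl, the third gene of this group, had closely similar means in both groups. Its log2 signal was 6.36, 5.78, 5.60 and 6.27 on the Gata6 KO arrays, against 6.07, 6.02 and 5.92 on the control arrays. The control values lay inside the Gata6 KO range. The log2 difference was 0.00092, with a 95% interval of -0.48 to 0.48 (limma adjusted p = 0.998), and its sign changed with the scaling. A second Lpl probe set read between 1.11 and 1.72 on the Gata6 KO arrays and between 1.28 and 1.59 on the control arrays, and did not pass either (adjusted p = 0.868 over all probe sets).

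Car3 was the marker with the smallest p. Its log2 signal was 4.29, 3.80, 3.67 and 4.26 on Gata6 KO arrays 1 to 4, against 2.37, 2.10 and 2.80 on control arrays 1 to 3. Every Gata6 KO array lay above every control array, Gata6 KO 4 included. The mean was 4.00 ± 0.31 (SD, n = 4) in Gata6 KO islets and 2.42 ± 0.36 (SD, n = 3) in controls, a 2.99-fold difference with a log2 SE of 0.24 (limma adjusted p = 4.23e-04). The call was kept under all 19 alternatives. Averaging in the second Car3 probe set lowered the difference to 0.71 (adjusted p = 0.0234). That probe set read between 0.72 and 1.02 on the Gata6 KO arrays and between 0.91 and 1.10 on the control arrays (adjusted p = 0.467 over all probe sets), so the 2 probe sets of Car3 disagree.

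The hormone genes were weak on these arrays. Adipoq, the most specific fat cell gene of the set, had a log2 signal of 1.46, 1.19, 1.34 and 1.69 on the Gata6 KO arrays, against 0.68, 0.73 and 0.77 on the control arrays. All Gata6 KO arrays lay above all control arrays, and Gata6 KO 4 was the highest, unlike for Fabp4 and Cd36. The mean was 1.42 ± 0.21 (SD, n = 4) in Gata6 KO islets and 0.73 ± 0.05 (SD, n = 3) in controls, a log2 difference of 0.69 with an SE of 0.17 (limma adjusted p = 0.00774).

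These Adipoq signals lay below the median of all genes on 7 of 7 arrays and below the lower quartile on 5. No detection calls were used here, and signals this low lie close to background, so no fold is given. After centring the difference was 0.47 and did not pass (adjusted p = 0.0524, in a range over the alternatives from 0.00708 to 0.0524). Adipoq and Car3 were the 2 markers of 9 whose groups did not overlap, both with Gata6 KO above. Over all genes 24.4% had all Gata6 KO arrays above all control arrays, 9.96% had all below, and 34.3% did not overlap in either direction.

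Retn, the second hormone gene, read 1.63, 1.76, 1.83 and 2.17 on the Gata6 KO arrays, against 1.73, 1.63 and 2.07 on the control arrays. The groups overlapped fully and all 7 values lay below the median of all genes. The log2 difference was 0.036 with a 95% interval of -0.41 to 0.48 (limma adjusted p = 0.917).

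The lipid droplet and lipolysis markers did not pass the test. Plin1, the perilipin that gates lipase access to the droplet, read 3.08, 2.59, 3.15 and 3.43 on the Gata6 KO arrays, against 3.02, 3.02 and 3.47 on the control arrays. Lipe read 2.52, 2.66, 3.15 and 3.23 on the Gata6 KO arrays, against 3.04, 3.32 and 3.08 on the control arrays. Neither gene separated the groups.

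For Plin1 the log2 difference was -0.11 (95% interval -0.62 to 0.41, limma adjusted p = 0.782). For Lipe it was -0.26 (95% interval -0.76 to 0.24, limma adjusted p = 0.454), with Gata6 KO arrays 1 and 2 below every control array. Cidec, which fuses lipid droplets, read 1.18, 2.39, 1.54 and 2.16 on the Gata6 KO arrays, against 1.47, 1.92 and 1.12 on the control arrays. Its values lay below the median of all genes on 7 of 7 arrays, and its difference of 0.32 (95% interval -0.30 to 0.93) had an adjusted p of 0.450. The highest upper bound of these intervals was 0.93, for Cidec, below the estimates for Fabp4, Car3 and Cd36 and above that for Adipoq, 0.69. The 95% interval of Cd36 (0.63 to 2.31) and that of Adipoq (0.34 to 1.05) include this bound. That of Fabp4 starts near it, at 0.93, and that of Car3 (1.06 to 2.10) lies above it. Differences between markers were not tested.

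**Figure D2:**
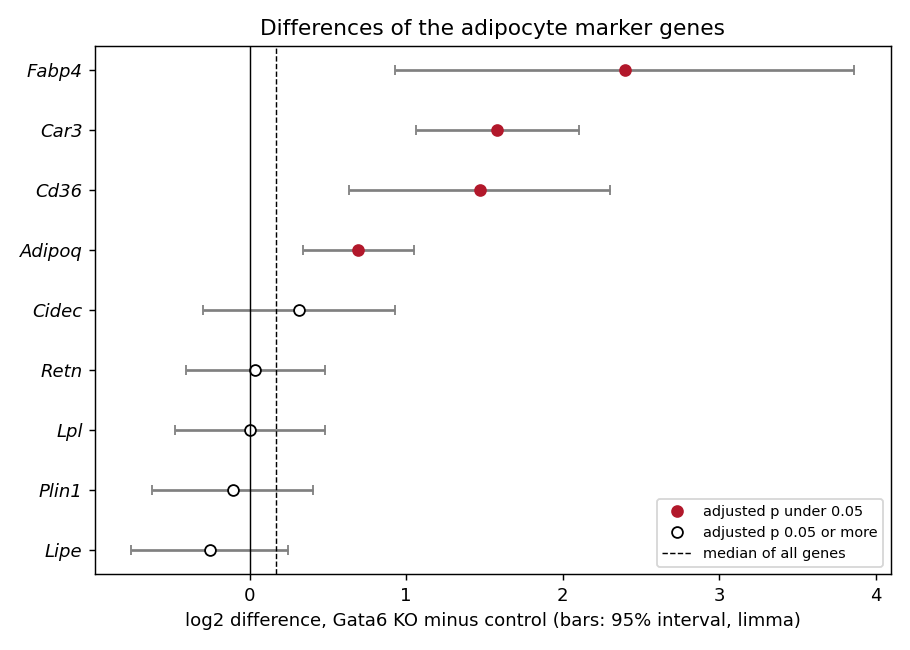
Log2 difference of each marker, Gata6 KO minus control, with 95% intervals from limma. Filled points passed an adjusted p of 0.05, and the dashed line marks the median of all genes, 0.17. Fabp4 has the widest interval, 0.93 to 3.86.

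The arrays differed by marker and not only by group. On Gata6 KO 4, Fabp4 and Cd36 stood -0.33 and 0.088 from the control means, while Car3 and Adipoq stood 1.83 and 0.96 above them. On the other Gata6 KO arrays Fabp4, Cd36, Car3 and Adipoq stood on average 3.30, 1.93, 1.50 and 0.61 above the control means. The 4 raised markers thus fall into a pair that was low on Gata6 KO 4 and a pair that was at its highest or near its highest there.

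Xist, which is transcribed in female cells, was low on control 3 (1.34) and Gata6 KO 3 (2.15) and between 5.02 and 5.60 on the other arrays. The labels give no sex. Over the arrays with high Xist, Fabp4 averaged 4.71 in Gata6 KO islets (n = 3) and 2.57 in controls (n = 2), and between the low pair it read 6.47 in Gata6 KO islets and 3.14 in the control. Car3, Cd36 and Adipoq were likewise higher in Gata6 KO within each class, and all 4 calls held with Xist class as a block. On the arrays with high Xist alone, chosen with the values in view, Car3 and Adipoq passed and Fabp4 (adjusted p = 0.0961) and Cd36 (adjusted p = 0.0941) did not.

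Gene profiles over the 7 arrays were compared as the root mean square difference of log2 values after each gene's mean was removed. The 5 genes closest to Adipoq were Olfr819, Rnaseh2a, Dusp14, Dtwd2 and Emc6, at 0.045 to 0.060, and none is a marker or a gene of the fat cell lists used here. Of Fabp4, chosen after its values were seen, Cd36 was the 16th closest gene, at 0.81, while Car3 ranked 1784 and Adipoq 6113. Seen from Cd36, Car3 (rank 3196, 0.76) was closer than Fabp4 (rank 4717, 0.81), and Adipoq was at 0.82, so by this measure, which also takes in the size of a difference, the pairing held in 1 direction only. The 5 closest to Fabp4 were Snora73b, Tspan1, Snord71, Scarna6 and Lum, 3 of which are small nucleolar or small Cajal body RNA genes and 1 a matrix proteoglycan. Those closest to Cd36 were Trpv6, Rny3, Dpep1, Timp2 and Cd53, the last of which encodes a leukocyte tetraspanin.

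Markers of other cells that make Fabp4 and Cd36 were set beside them. Of 12 macrophage genes 5 were higher and 0 lower, against 17.4% and 7.36% of all genes. The mean of the list ran from 2.82 to 3.93 over the Gata6 KO arrays and from 2.43 to 2.72 over the control arrays. Lyz2, the macrophage lysozyme, read 6.78, 5.16, 4.83 and 2.93 on Gata6 KO arrays 1 to 4, against 2.91, 2.68 and 1.47 on the control arrays (limma difference 2.57, SE 0.63, adjusted p = 0.00889). Its value on Gata6 KO 4 was close to that of control 1. C1qb, a complement gene of resident macrophages, read 5.33, 3.67, 4.08 and 2.60 on the Gata6 KO arrays, against 4.80, 3.67 and 4.00 on the control arrays, and did not pass (adjusted p = 0.752). Adgre1, which encodes the macrophage surface protein F4/80, read between 1.80 and 2.94 on the Gata6 KO arrays and between 1.39 and 2.43 on the control arrays, and did not pass (adjusted p = 0.425). The other 4 macrophage genes called higher, Cd14, Mrc1, Fcgr1 and Mpeg1, lay above every control array on Gata6 KO 4 too, unlike Fabp4 and Cd36. On that array they read 3.37, 2.79, 2.79 and 2.71, against at most 2.18, 2.14, 1.64 and 1.62 on the control arrays.

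Of 12 endothelial genes 1 (Cldn5, named after its values were seen) was higher and 3 were lower, with list means of 3.66 to 4.26 over the Gata6 KO arrays and 4.01 to 4.40 over the control arrays. Plvap, of fenestrated capillaries, read 6.88, 6.19, 6.23 and 5.004 on the Gata6 KO arrays, against 7.70, 7.24 and 7.51 on the control arrays (difference -1.41, SE 0.33, limma adjusted p = 0.00758). Over all genes 17.4% were higher and 7.36% lower. Eng, an endothelial coreceptor of TGF-beta, read between 4.52 and 5.74 on the Gata6 KO arrays and between 5.56 and 6.14 on the control arrays (adjusted p = 0.0853).

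Of 12 mesenchymal genes 8 were higher and 1 was lower, against 17.4% and 7.36% of all genes. List means were 3.61 to 5.32 over the Gata6 KO arrays and 3.30 to 3.94 over the control arrays. The intermediate filament gene Vim read 7.12, 6.54, 6.37 and 5.59 on the Gata6 KO arrays, against 4.99, 5.35 and 5.61 on the control arrays (difference 1.09, SE 0.30, limma adjusted p = 0.0169). Rgs5, a pericyte gene, read 6.10, 5.69, 5.92 and 3.56 on the Gata6 KO arrays, against 6.28, 6.12 and 6.54 on the control arrays, and did not pass (adjusted p = 0.128). Both were lowest in their group on Gata6 KO 4.

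Genes that were above every control array on Gata6 KO 1, 2 and 3 but not on Gata6 KO 4, a pattern picked after the values were seen and given with no test, made up 3.69% of all genes. They were 2 of the 9 fat cell markers (Fabp4 and Cd36), 3 of 12 mesenchymal genes (Dcn, Lum and Vim), 3 of 10 lymphoid genes (Cd3g, Cd79a and Cr2), 2 of 12 endothelial genes (Pecam1 and Tie1) and 1 of 12 macrophage genes (Cd68). They also included 2 of 13 genes of fatty acid uptake (Acsl4 and Acsl5), 1 of 12 muscle genes (Acta1), 1 of 10 adipogenic factors (Cebpd), 1 of 8 brown fat genes (Ppargc1a) and 1 of 18 lipolysis and droplet genes (Mgll). The matrix proteoglycan gene Lum read 4.23, 3.65, 3.33 and 1.24 on the Gata6 KO arrays, against 1.22, 1.52 and 1.55 on the control arrays. The part of these cell types in the Fabp4 and Cd36 signals was not tested.

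**Figure D3:**
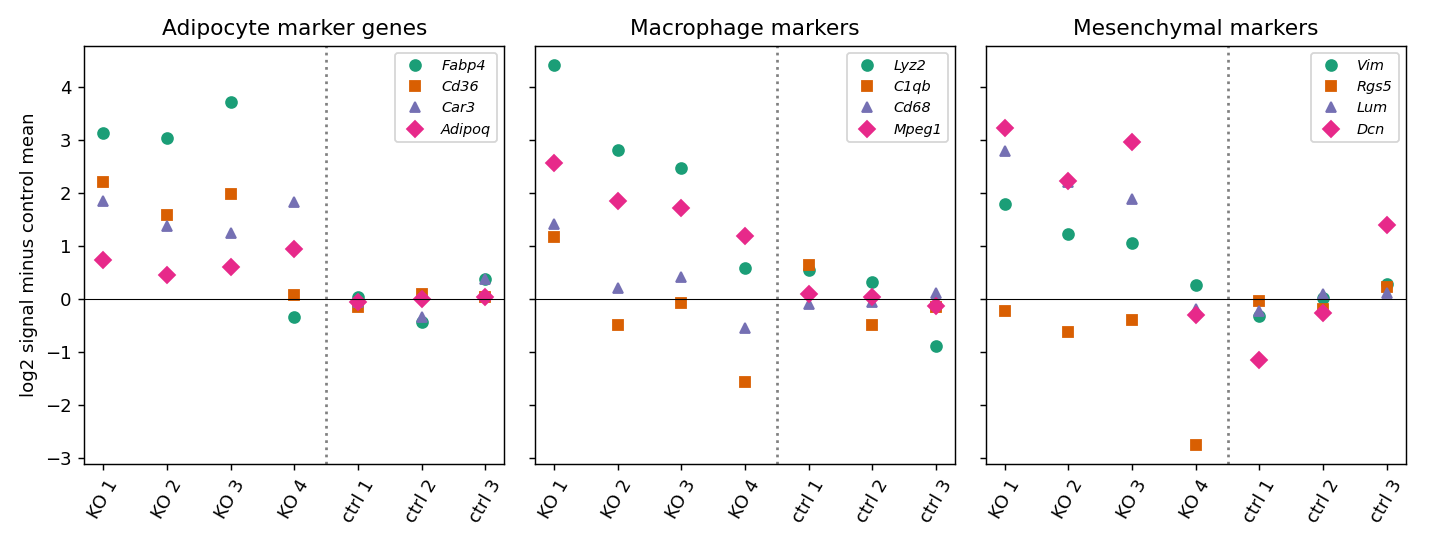
Log2 signal minus the control mean on each array for the 4 raised fat cell markers (left), 4 macrophage genes (middle) and 4 mesenchymal genes (right), with Gata6 KO arrays left of the dotted line and control arrays right of it. Fabp4, Cd36, Lum and Dcn lie within the control range on Gata6 KO 4, where Car3 and Adipoq remain above it. Mpeg1, Cd68, Lum and Dcn were picked after the values were seen.

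Car3 is also abundant in skeletal muscle, so muscle genes were examined. Of 12 measured, 2 were higher and 1 was lower, near the shares of all genes, 17.4% and 7.36%. List means were 2.22 to 2.56 over the Gata6 KO arrays and 2.14 to 2.21 over the control arrays. Acta1, skeletal actin, read 4.21, 4.00, 4.49 and 3.63 on the Gata6 KO arrays, against 3.73, 3.13 and 3.88 on the control arrays, and did not pass (adjusted p = 0.168). Tnnc2, fast skeletal troponin C, was lower (difference -1.02, SE 0.27, limma adjusted p = 0.0133). The 2 that were higher, named after their values were seen, were Ckm, muscle creatine kinase, and Tnnt3, fast skeletal troponin T. Ckm read 2.51, 2.22, 3.10 and 3.37 on the Gata6 KO arrays, against 2.07, 1.67 and 1.59 on the control arrays (limma adjusted p = 0.0159). Tnnt3 read 2.62, 2.64, 3.02 and 4.02 on the Gata6 KO arrays, against 1.77, 2.09 and 2.04 on the control arrays (limma adjusted p = 0.0169). Both were highest on Gata6 KO 4, where Car3 was also near its highest. On Gata6 KO 3 Car3 was lowest of its group (3.67), while both were higher than on Gata6 KO 1 and 2. The part of Ckm and Tnnt3 in the Car3 difference was not tested. The myosin heavy chain genes Myh4 and Myh1 read at most 1.83 on any array.

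For the lymphoid, acinar, ductal and endocrine counts, the shares of all genes to set beside them are 17.4% higher and 7.36% lower. Of 10 lymphoid genes 5 were higher and 0 lower, with list means of 2.52 to 3.37 over the Gata6 KO arrays and 1.81 to 1.84 over the control arrays. The lymphotoxin gene Ltb differed by 1.64 (SE 0.24, limma adjusted p = 2.70e-04), and the B-cell receptor gene Cd79a by 1.06 without passing (adjusted p = 0.0907). Of 10 acinar genes 5 were higher and 0 lower, and of 6 ductal genes 2 were higher and 1 lower. The ductal genes Muc1 and Epcam differed by 1.23 and 0.75 (limma adjusted p = 0.00449 and 0.0358). The rest of the ductal list, named after the values were seen, did not follow them. Krt7 was lower (difference -0.82, limma adjusted p = 0.0244). Krt19, Sox9 and Cftr did not pass (adjusted p = 0.229, 0.274 and 0.651). The acinar list mean ran from 10.68 to 10.90 over the Gata6 KO arrays and from 9.90 to 10.12 over the control arrays. The acinar genes Ctrb1 and Cela1 read 13.39 to 13.54 and 13.12 to 13.33 on the Gata6 KO arrays. On the control arrays they read 13.39 to 13.43 and 13.14 to 13.28, and neither passed (limma adjusted p = 0.822 and 0.921). Acinar transcripts were thus among the highest signals in both groups. At the top of the range, normalized quantiles leave little room for a difference, so these 2 genes cannot show whether acinar transcripts changed. The 5 acinar genes called higher, named after their values were seen, were Spink1, Prss2, Gp2, Ptf1a and Rbpjl. Their differences ran from 0.95 to 1.90. Cpa1, Cel and Bhlha15 did not pass. Of 12 endocrine genes 0 were higher and 11 lower, with list means of 5.27 to 7.07 over the Gata6 KO arrays and 8.47 to 8.94 over the control arrays. Their part in the differences of the fat cell markers was not tested.

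Gata6, the targeted gene, read 5.41, 5.35, 5.34 and 5.01 on the Gata6 KO arrays, against 4.60, 4.80 and 4.83 on the control arrays (difference 0.54, SE 0.20, limma adjusted p = 0.0622). The signal did not fall, and the sources used here do not place the probe set relative to the deleted part, so it checks nothing if it lies outside. Directions are those of the labels. The islet hormone genes Gcg and Sst, which mark the labelled tissue, were at 6.85 to 10.55 and 8.72 to 10.77 on the Gata6 KO arrays, against 11.82 to 12.12 and 12.01 to 12.38 on the control arrays. On every array both were below the acinar genes Ctrb1 and Cela1.

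The wider fat cell programme was examined through lists of other genes. Beside the counts of each of these lists stand the shares of all genes, 17.4% higher and 7.36% lower. Of 10 adipogenic transcription factors 1 was higher and 1 lower. Zfp423, a factor of preadipocyte commitment, read 3.78, 3.43, 3.73 and 3.96 on the Gata6 KO arrays, against 2.43, 1.91 and 2.68 on the control arrays (difference 1.38, SE 0.24, limma adjusted p = 8.94e-04). Srebf1, which drives lipogenic genes, was at 3.22 to 4.02 on the Gata6 KO arrays and 4.62 to 4.80 on the control arrays (difference -1.13, SE 0.24, limma adjusted p = 0.00383).

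Pparg, the master regulator of fat cell differentiation, read 1.67, 1.42, 1.25 and 1.82 on the Gata6 KO arrays, against 1.36, 1.00 and 1.00 on the control arrays, and did not pass (adjusted p = 0.127). It was picked for its role. Cebpa and Cebpd, the C/EBP factors of the same programme, differed by 0.63 and 0.76 and did not pass (limma adjusted p = 0.0819 and 0.0604).

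Of 12 other adipokine and adiponectin receptor genes 1 was higher and 1 lower. Adipor1, an adiponectin receptor made in most tissues, differed by 0.58 (SE 0.19, limma adjusted p = 0.0428). Rbp4, the retinol carrier, was lower by 1.06 on the log2 scale (difference -1.06, SE 0.27, limma adjusted p = 0.0107). Cdh13, which encodes the adiponectin-binding T-cadherin, differed by 0.59 (adjusted p = 0.0513), and the resistin-like gene Retnlb by 0.41 (adjusted p = 0.110). The leptin gene Lep, named for its role, read at most 1.16 on any array.

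Of 13 genes of fatty acid uptake and lipoprotein lipase handling 2 were higher and 0 lower. Angptl4, a secreted inhibitor of Lpl, read 3.73, 3.19, 3.57 and 3.14 on the Gata6 KO arrays, against 2.57, 2.20 and 2.07 on the control arrays (difference 1.13, SE 0.23, limma adjusted p = 0.00297). Apoc2, the apolipoprotein that activates Lpl, differed by 0.90 (SE 0.26, limma adjusted p = 0.0214). Gpihbp1, which anchors Lpl to capillaries, and Lmf1, which matures it, did not pass (adjusted p = 0.958 and 0.353). The share of the list called higher was near that of all genes. Sel1l, an ER quality control gene needed for Lpl maturation, and the acyl-CoA synthetase gene Acsl5 differed by 0.54 and 0.50 and did not pass (adjusted p = 0.0770 and 0.161).

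Of the 9 other fatty acid binding proteins 3 were higher and 0 lower. Fabp5, a relative of Fabp4 made in fat cells and macrophages, read 3.68, 3.42, 3.75 and 3.26 on the Gata6 KO arrays, against 2.10, 2.26 and 1.96 on the control arrays. Unlike Fabp4, it was above every control array on Gata6 KO 4 (difference 1.42, SE 0.21, limma adjusted p = 3.54e-04). The liver and intestinal genes Fabp1 and Fabp2 differed by 0.90 and 0.89 (limma adjusted p = 0.00333 and 0.0397) at signals of at most 1.90 and 2.94. Fabp6, of bile acid transport, differed by 0.60 and did not pass (adjusted p = 0.113).

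The lipolysis and lipid droplet list had 7 of 18 genes higher and 0 lower, and a median difference of 0.50. Cidea, a relative of Cidec, read 3.18, 2.77, 2.51 and 2.71 on the Gata6 KO arrays, against 1.25, 1.45 and 1.19 on the control arrays (difference 1.50, SE 0.21, limma adjusted p = 2.49e-04). Hilpda, a hypoxia-induced droplet protein, differed by 1.20 (SE 0.21, limma adjusted p = 0.00102), and the droplet coat gene Plin3, which is made in most tissues, by 1.18 (SE 0.25, limma adjusted p = 0.00409). Pnpla3, a droplet acylhydrolase, differed by 0.97 (SE 0.20, limma adjusted p = 0.00318). The fat cell perilipin Plin1 and Cidec were thus without a call while Plin3 and Cidea passed, a difference that was not itself tested. Lack of a call was not particular to them, as 11 of the 18 list genes had none. Among these were the perilipin genes Plin2, Plin4 and Plin5, named after their values were seen (limma adjusted p = 0.104, 0.766 and 0.642).

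Of 17 genes of triglyceride synthesis and lipogenesis 2 were higher and 2 lower. The fatty acid elongase Elovl6 and ATP citrate lyase Acly were lower by 2.20 and 1.89 on the log2 scale (differences -2.20 and -1.89, limma adjusted p = 1.44e-05 and 2.07e-04). The desaturase Scd1 and Dgat1, which completes triglyceride, differed by 1.17 and 0.94 (limma adjusted p = 0.00593 and 0.00612). Of 8 brown fat genes 2 were higher, Cox7a1 by 0.74 and Prdm16 by 0.80 (limma adjusted p = 0.0125 and 0.0186), and 0 were lower. Elovl3 and Ppargc1a, of the same list, differed by 0.48 and 0.51 and did not pass (adjusted p = 0.0651 and 0.151). Ucp1, the defining brown fat uncoupler, read at most 1.39 on any array.

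Of 13 other carbonic anhydrase genes 3 were higher and 3 lower. Car10, a catalytically inactive member, read 2.88, 2.85, 2.56 and 2.77 on the Gata6 KO arrays, against 5.31, 5.84 and 5.12 on the control arrays (difference -2.66, SE 0.22, limma adjusted p = 4.12e-06). Car15 differed by -1.30 (SE 0.33, limma adjusted p = 0.0105). Car7 and the mitochondrial Car5b differed by 1.14 and 1.17, in the direction of Car3 (limma adjusted p = 0.00302 and 0.00599).

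**Figure D4:**
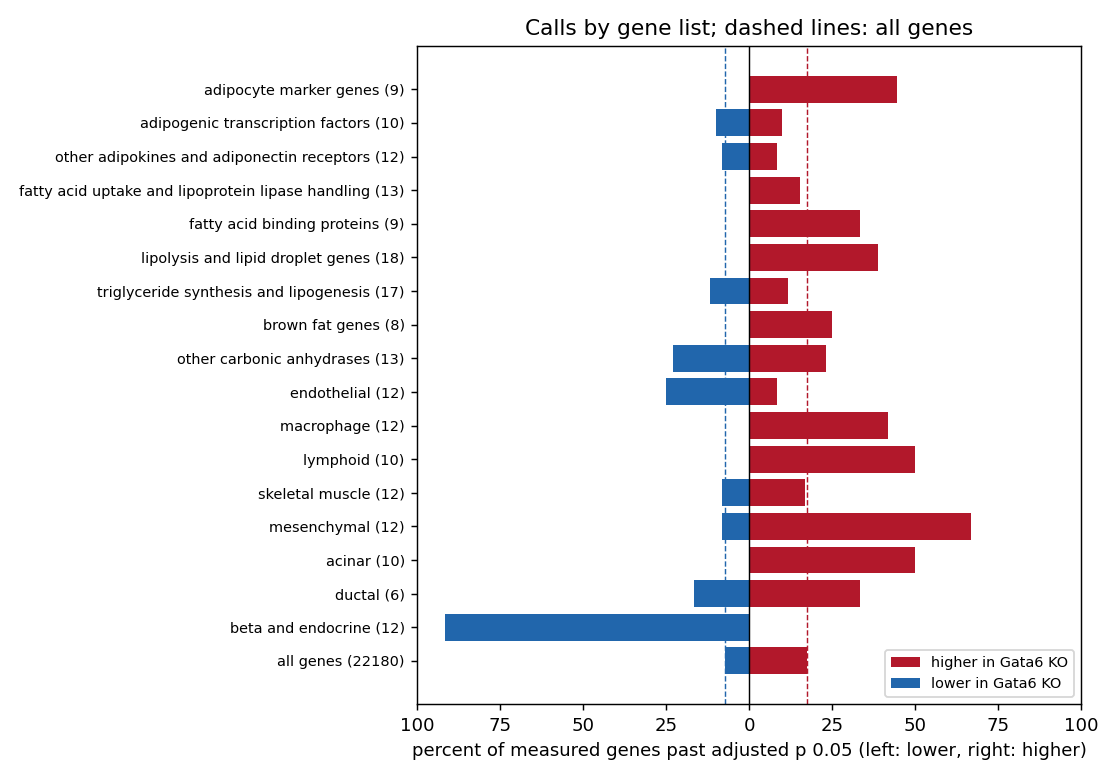
Percent of the measured genes of each list (number in brackets) that were higher (red, right) or lower (blue, left) in Gata6 KO at an adjusted p under 0.05. Dashed lines mark all genes, 17.4% higher and 7.36% lower. The 9 fat cell markers have 4 higher and 0 lower, and the endocrine list has 11 of 12 lower.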

How the data were processed

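The deposited log2 values are the authors' RMA summaries, 1 per probe set. RMA and Transcriptome Analysis Console are listed, with no version, in the submitters' processing notes. RMA corrects background, normalizes quantiles and reports in base 2. A genome build was not given in the sources used here. Of 41345 probe sets 23521 had 1 gene symbol in the platform annotation, 1814 had several and 16010 had none. Per gene the probe set with the highest mean over the 7 arrays was used, which gave 22180 genes. Groups were compared with limma 3.58.1 under R 4.3.3 (two-sided moderated test from lmFit and trended eBayes, no covariate) with Benjamini-Hochberg adjustment over all genes at 0.05. The fit was checked on simulated data. No list was tested as a whole. The 10 markers, the 16 other lists and the tests were chosen with earlier results of these data known. Genes named in the text are the markers, Gata6, Xist, up to 4 genes of each fat cell list with the smallest p, the 2 with the highest mean of each list of another cell type and the 5 with a profile closest to Adipoq. Others are stated to be chosen afterwards. Adgre1, Myh4, Myh1, Ucp1, Gpihbp1 and Lmf1 were picked for their roles, and Cd14, Mrc1, Fcgr1 and Mpeg1 after their values were seen. Alternatives covered scaling, a filter, probe set choice, the variance model, array weights, a threshold of 0.01, blocks and leaving out arrays. Figures were drawn with matplotlib 3.10.9.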

Additional observations from a re-analysis of the deposited data

Results flagged for a closer look

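Among 64 genes named by the rule, 8 had a Gata6 KO array set apart from the other 3 by a gap that exceeded Dixon's 95% critical value for 4 samples, where chance flags about 1 in 20. Fabp4 read 2.43 on Gata6 KO 4, with the nearest array at 5.80 (ratio 0.834). Rgs5 read 3.56 and Gata6 5.01 on the same array. Gcg read 6.85 and Xist 2.15 on Gata6 KO 3, which also held the lowest Plin3 value, 4.50. Fabp2 read 2.935 on Gata6 KO 2, above the others, and Cdh13 2.14 on Gata6 KO 1, below the others.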

How the results depend on the processing

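Of the single-marker results over the alternatives named under the processing, 137 kept their direction and side of the threshold, 12 lost the call and 19 changed sign. The changes of sign were those of Lpl, Retn and Plin1, whose differences were within 0.11 of 0, and the cause was not tested. The Lpl difference was -0.23 after centring, -0.17 after quantile normalization, -0.030 with the mean of probe sets, -0.055 with array weights, -0.089 with the replicate block and -0.028 with the Xist block. The Retn difference was -0.19 after centring, -0.17 after quantile normalization, -0.072 with the replicate block and -0.12 without Gata6 KO 3 and 4, and Plin1 was 0.013 on the arrays with high Xist. Leaving out each array gave -0.12 to 0.14 for Lpl, -0.072 to 0.17 for Retn and -0.23 to 0.052 for Plin1.

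Between 2 and 4 markers and between 3265 and 5613 genes passed when each array was left out. Of these, 3265 passed without control 1, where Fabp4 and Cd36 lost their calls, and 3586 without control 2, against 5486 with all arrays. At a threshold of 0.01, 2 markers and 2797 genes passed, and on the arrays with high Xist 2 markers and 3337 genes. Fewer arrays or a stricter threshold are part of these settings. With the 40% of genes with the lowest means left out, Adipoq, Cidec and Retn were not tested. Deviations of same-numbered arrays from their group means correlated at 0.098, 0.0043 and 0.115, not over 0.1 in every pair, so the numbers were not taken as pairs. With the replicate block 5921 genes and the same 4 markers passed, but Gata6 KO 4 has no control of its number, so this fit takes nothing from that array and gives the same differences as leaving it out. Signal near background limits Adipoq, Cidec and Retn.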
